A study of Bos taurus with 8 samples.

Results

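The 4 genes described here encode NR5A1 (also called SF-1), NR5A2 (also called LRH-1), NR0B1 (also called DAX-1) and NR0B2 (also called SHP). They were chosen by gene symbol as the array clusters annotated with that symbol alone, and each symbol had 1 such cluster. They are 4 of 18087 gene symbols measured over 24415 transcript clusters. The samples were primary small luteal cells (SLC, n = 4) and primary large luteal cells (LLC, n = 4), sorted by FACS after Hoechst staining from mature, mid-cycle corpora lutea of lactating Holstein cows. All cows had been synchronised with cloprostenol, and no sample received a further treatment. Each sample had 1 array (Bovine Gene 1.0 ST, Affymetrix). The labels call the samples biological replicates, without saying whether an SLC and an LLC sample came from the same cow. The ages of the cows were not given in the sources used here.

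NR5A1 and NR5A2 are closely related nuclear receptors that bind DNA as monomers at an extended half-site and activate genes of steroid synthesis. NR5A1 is known for the development and function of the adrenal gland and gonads. NR5A2 is known in the ovary from granulosa and luteal cells, and mice that lack it in granulosa cells fail to ovulate. NR0B1 and NR0B2 have a ligand-binding domain but no classical DNA-binding domain, and both act as corepressors that bind other nuclear receptors, NR5A1 and NR5A2 among them.

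Values are log2 signals, so that 1 unit is a factor of 2. Differences are LLC minus SLC, and a cluster is called where the limma adjusted p is under 0.05 over all clusters. The 95th percentile of 718 olfactory receptor clusters served as a limit of background and lay between 2.27 and 2.44 on the 8 arrays. This limit is approximate because probes differ in their response. LLC replicate 4 was most often the LLC array nearest to SLC, though not for every list of markers. It was the LLC array closest to the SLC mean in 55.4% of the 4834 called clusters, against 9.56% for LLC replicate 3. Values without LLC replicate 4 are therefore given beside the results that rest on it.

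Genes listed as markers of several other cell types were higher in SLC, and whether small luteal cells express some of them was not tested. All of 12 macrophage markers, 9 of 10 fibroblast markers, 8 of 12 endothelial markers and 5 of 9 pericyte and smooth muscle markers were called higher in SLC. Higher in LLC, 0 were called by limma and 0 had an unadjusted p under 0.05. The summed linear signal of the macrophage markers was 571 to 794 in SLC and 126 to 180 in LLC. For fibroblast markers it was 7751 to 9731 in SLC and 2277 to 4362 in LLC, and for endothelial markers 1177 to 1987 in SLC and 315 to 955 in LLC. No marker of these 3 lists was at or below the background limit on every array. Of 11 lymphocyte markers, 6 were at or below it on every array, and 1 was called higher in SLC. The steroidogenic markers of luteal cells were high in both types, with 5 of 5 above background on every array. Their mean log2 signal was 10.49 to 10.69 in SLC and 10.50 to 10.94 in LLC. Of these 5, FDX1 and CYP11A1 were called higher in LLC and 0 higher in SLC, which is 40% beside 19.8% of all clusters. At an unadjusted p under 0.05 there were 3 towards LLC and 1 (LHCGR, -1.17) towards SLC, so the mean joins opposite differences. In such bulk samples, fewer cells of a type and less RNA per cell cannot be told apart.

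NR5A2 was much higher in LLC. Its signal was 4.50, 4.34, 4.88 and 3.85 in SLC replicates 1 to 4 and 9.48, 9.19, 9.38 and 8.32 in LLC replicates 1 to 4. The lowest LLC array lay well above the highest SLC array, and replicate 4 was the lowest of its group in both cell types. All 8 values were above the background limit. The means were 4.39 ± 0.43 (SD, n = 4) in SLC and 9.09 ± 0.53 (SD, n = 4) in LLC. The difference was 4.70 (SE 0.28, 95% confidence interval 4.08 to 5.32, limma adjusted p = 2.60e-05), or 26.0-fold with an interval of 16.9-fold to 39.9-fold. By size this was rank 7 among all 24415 clusters in the direction of LLC, and rank 6 among gene symbols. Without LLC replicate 4 the difference was 4.96. NR5A2 was the only 1 of the 4 genes that was called, while 19.8% of all clusters were called, 9.64% higher in LLC and 10.2% higher in SLC. It was also the only 1 of the 4 whose cell types did not overlap, as held for 22.4% of all clusters.

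NR5A1 did not follow NR5A2. Its signal was 6.66, 6.20, 6.74 and 6.08 in SLC replicates 1 to 4 and 5.62, 5.32, 6.33 and 6.26 in LLC replicates 1 to 4. The groups overlapped, since LLC replicates 3 and 4 lay among the SLC arrays while LLC replicates 1 and 2 lay below all of them. The means were 6.42 ± 0.33 (SD, n = 4) in SLC and 5.88 ± 0.49 (SD, n = 4) in LLC. The difference of -0.54 was not called (SE 0.24, 95% confidence interval -1.08 to 0.01, limma adjusted p = 0.169). The interval allows a signal up to 2.12-fold higher in SLC. The difference was -0.35 without LLC replicate 2, -0.69 without LLC replicate 3 and -0.66 without LLC replicate 4, and none of these was called. The markers of macrophages, fibroblasts and endothelial cells, as given above, were higher in SLC as well, and their part in the NR5A1 values was not tested.

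**Figure D1:**
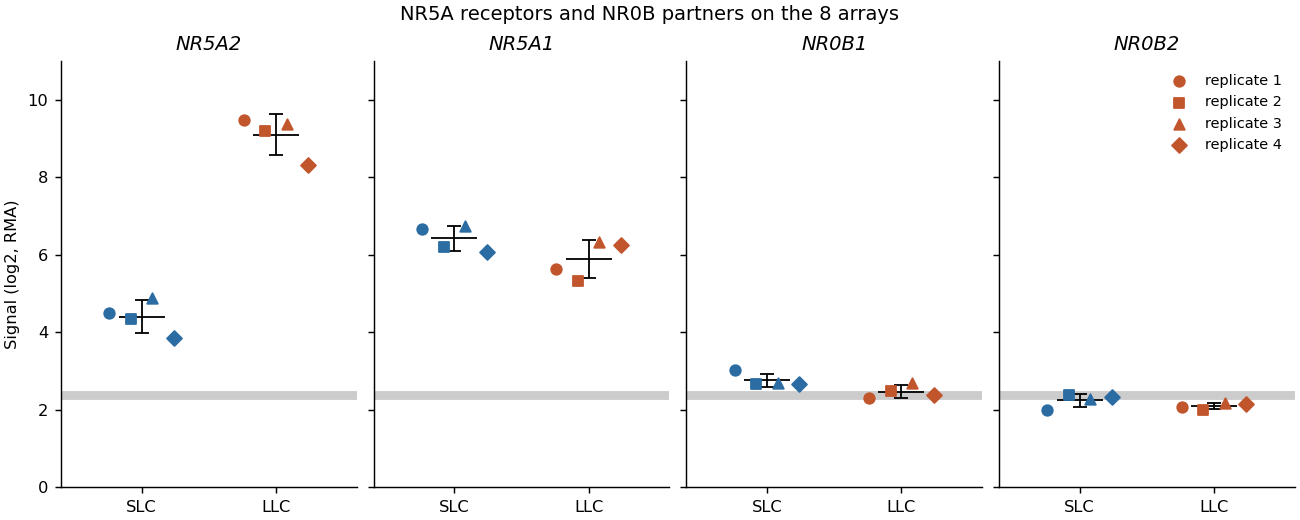
Signal (log2, RMA) of the 4 genes on each array, with SLC in blue and LLC in orange, a marker shape for each replicate number, and the mean ± SD (n = 4) in black. The grey band spans the background limits of the 8 arrays, 2.27 to 2.44. The 4 LLC arrays lie above the 4 SLC arrays for NR5A2, while NR5A1 overlaps and NR0B1 and NR0B2 lie near the band.

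The difference between cell types was unlike for the 2 receptors. The log2 signal of NR5A2 minus that of NR5A1 was -2.16, -1.86, -1.86 and -2.23 in SLC replicates 1 to 4 and 3.86, 3.87, 3.05 and 2.06 in LLC replicates 1 to 4. The SLC values were close together, whereas the LLC values spread widely, with LLC replicate 4 the lowest. Signals of different probes share no scale, so only the change of this quantity between cell types has a meaning. It rose by 5.24 from SLC to LLC (exact permutation test, two-sided p = 0.0286, the smallest that the 70 assignments of 4 and 4 arrays allow). Without LLC replicate 4 it was 5.62. Among the SLC arrays both receptors had the same order, with replicate 3 highest and replicate 4 lowest. Among the LLC arrays they had different orders, with replicate 1 highest for NR5A2 and replicate 3 highest for NR5A1.

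The corepressor genes gave low signals in both cell types. NR0B1 had a signal of 3.01, 2.67, 2.68 and 2.65 in SLC replicates 1 to 4 and 2.30, 2.49, 2.68 and 2.38 in LLC replicates 1 to 4. All 4 SLC arrays and 2 of the 4 LLC arrays were above the background limit of their own array. LLC replicate 3 equalled SLC replicate 3, so the groups overlapped. The means were 2.75 ± 0.17 (SD, n = 4) in SLC and 2.46 ± 0.16 (SD, n = 4) in LLC. The difference of -0.29 was not called (95% confidence interval -0.57 to -0.01, limma adjusted p = 0.142). It was -0.20 without SLC replicate 1, the array with the highest value.

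NR0B2 had a signal of 2.00, 2.37, 2.26 and 2.32 in SLC replicates 1 to 4 and 2.07, 1.99, 2.18 and 2.14 in LLC replicates 1 to 4. Of these, 2 SLC arrays and 0 LLC arrays were above the background limit. The groups overlapped, because SLC replicate 1 was lower than 3 of the LLC arrays. The difference of -0.14 was not called (95% confidence interval -0.39 to 0.10, limma adjusted p = 0.445), nor was that of -0.22 without SLC replicate 1. With signals this close to background, neither corepressor gene can be said to be present or absent in LLC from these arrays.

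The genes nearest to each receptor in the genome, by their order in the RefSeq annotation of ARS-UCD2.0, were read beside them. ZNF281, a zinc finger gene next to NR5A2, was at 6.44 to 6.55 in SLC and 6.31 to 6.61 in LLC, a difference of -0.05 (95% confidence interval -0.26 to 0.17). PTPRC, the leukocyte gene of CD45 on the other side of NR5A2, was at 4.53, 4.16, 3.57 and 3.90 in SLC replicates 1 to 4 and 4.86, 4.74, 4.52 and 3.50 in LLC replicates 1 to 4. The groups overlapped, with LLC replicate 4 below all other arrays. The difference was 0.37 (95% confidence interval -0.30 to 1.03, limma adjusted p = 0.480), and 0.67 and called without LLC replicate 4. NR6A1, the gene of the orphan receptor germ cell nuclear factor, lies next to NR5A1. Its signal was 4.19, 3.56, 3.78 and 4.27 in SLC replicates 1 to 4 and 3.11, 3.19, 3.97 and 4.28 in LLC replicates 1 to 4. LLC replicates 1 and 2 lay below all SLC arrays, as for NR5A1, while LLC replicate 3 lay among them and LLC replicate 4 was level with the highest. The difference was -0.31 (95% confidence interval -0.92 to 0.30, limma adjusted p = 0.512). Among the 8 neighbours measured, 2 for each of the 4 genes, 0 were called by limma. At an unadjusted p under 0.05 there was 1, MAGEB1, next to NR0B1 and at background on every array. With 19.8% of all clusters called, 8 genes are too few to set the neighbours apart.

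Genes that NR5A receptors are known to activate in one tissue or another did not move as a block. Of 31 such genes in a list written from general knowledge, 28 were measured. A gene counts as measured throughout where a cluster carried its symbol alone. STAR, CYP11B1 and FDXR had no such cluster, and clusters with several symbols or none were not searched for them. Of the 28, 5 were at or below the background limit on every array, and 15 were above it on every array. In all, 7 were called higher in LLC and 3 higher in SLC, so that 35.7% were called beside 19.8% of all clusters, and the median difference was 0.08 beside 0.01 over 1 cluster per symbol. Several of the listed genes are also targets of other factors, and some were already known to differ on these arrays when the list was written.

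In steroid synthesis, 3 of 8 measured targets were called, all higher in LLC, which is 37.5% beside 19.8% of all clusters. CYP19A1, the aromatase gene that makes estrogens from androgens, was at 2.85, 2.44, 2.21 and 2.66 in SLC replicates 1 to 4 and 6.07, 6.11, 5.91 and 4.91 in LLC replicates 1 to 4. The SLC values were near background and the LLC values clearly above it, with LLC replicate 4 again the lowest of its group. The difference was 3.21 (SE 0.26, limma adjusted p = 9.16e-05), and 3.49 without LLC replicate 4. FDX1, which passes electrons to mitochondrial steroidogenic enzymes, differed by 0.81 (SE 0.10) and CYP11A1, which makes pregnenolone from cholesterol, by 0.45 (SE 0.09). These 2 genes gave high signals in both cell types, at 9.99 or above on every array. HSD3B1, the enzyme gene for progesterone, differed by 0.27 and was not called (limma adjusted p = 0.0598). All LLC arrays of HSD3B1 were above all SLC arrays, and it was called in 4 of 17 alternative settings. The lipoprotein receptor gene SCARB1 was at 11.12 to 11.32 in SLC and 11.19 to 11.41 in LLC.

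CYP17A1, the enzyme gene that leads to androgens, split the LLC arrays. Its signal was 3.88, 3.76, 3.87 and 3.64 in SLC replicates 1 to 4, and 2.63, 3.01, 4.74 and 4.59 in LLC replicates 1 to 4. LLC replicates 1 and 2 lay below all SLC arrays and LLC replicates 3 and 4 above all of them, so that the difference of -0.05 was small beside an SD of 1.08 in LLC. NR5A1 ordered the LLC arrays the same way, with replicates 3 and 4 at least 0.64 above replicates 1 and 2. This gap was 1.58 for CYP17A1, 0.84 for LHCGR and 0.78 for NR6A1. The split was taken from the values of NR5A1, and CYP17A1, LHCGR and NR6A1 were picked for it after their values were seen. Over all clusters, 20.8% had LLC replicates 3 and 4 above replicates 1 and 2. A gap at least as large as that of NR5A1 was found in 89 clusters or 0.365%. These shares only describe the split and cannot test it, because NR5A1 itself defined it.

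Among 12 hormone and receptor genes, 3 were called higher in LLC and 2 higher in SLC, which is 41.7% beside 19.8% of all clusters. PRLR, the prolactin receptor gene, was at 3.17, 1.86, 1.87 and 2.40 in SLC replicates 1 to 4 and 8.42, 8.06, 7.22 and 7.13 in LLC replicates 1 to 4. OXT, which encodes the precursor of oxytocin, was at 6.56 to 8.74 in SLC and 11.05 to 11.27 in LLC. The difference was 5.38 (SE 0.35) for PRLR and 3.68 (SE 0.38) for OXT. FSHR, the follicle-stimulating hormone receptor gene, differed by 0.99 (SE 0.17), but every SLC array and 3 of 4 LLC arrays were below the background limit. In the other direction INSL3, a hormone gene of theca cells, was at 7.95 to 9.27 in SLC and 5.30 to 6.83 in LLC, a difference of -2.61 (SE 0.35). INHA, the inhibin alpha subunit gene, differed by -1.24 (SE 0.22). LHCGR, the receptor gene for luteinizing hormone, was at 9.60, 9.08, 9.51 and 9.14 in SLC replicates 1 to 4 and 7.33, 7.55, 8.39 and 9.38 in LLC replicates 1 to 4. Its difference of -1.17 was not called (limma adjusted p = 0.0593), and was -1.58 and called without LLC replicate 4 (limma adjusted p = 0.00211). It was called in 3 of 17 alternative settings.

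Of 8 targets known from liver, embryo or other tissues, 1 was called in each direction, which is 25% beside 19.8% of all clusters. MGARP, a mitochondrial protein gene of steroidogenic tissues, was at 2.95, 3.15, 4.30 and 3.05 in SLC replicates 1 to 4 and 7.46, 6.90, 7.15 and 5.46 in LLC replicates 1 to 4. This was a difference of 3.38 (SE 0.43, limma adjusted p = 0.000789), with LLC replicate 4 the lowest of its group and still above every SLC array. VNN1, which encodes a pantetheinase, differed by -1.16 (SE 0.20). The other 6, among them the liver targets CYP7A1 and CYP8B1 of bile acid synthesis, differed by -0.10 to 0.18 and were not called. CYP7A1 and CYP8B1 were below the background limit on all 8 arrays. Of the 8 targets, only MGARP and VNN1 were above it on every array, so an unchanged level of the others cannot be read from these values.

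**Figure D2:**
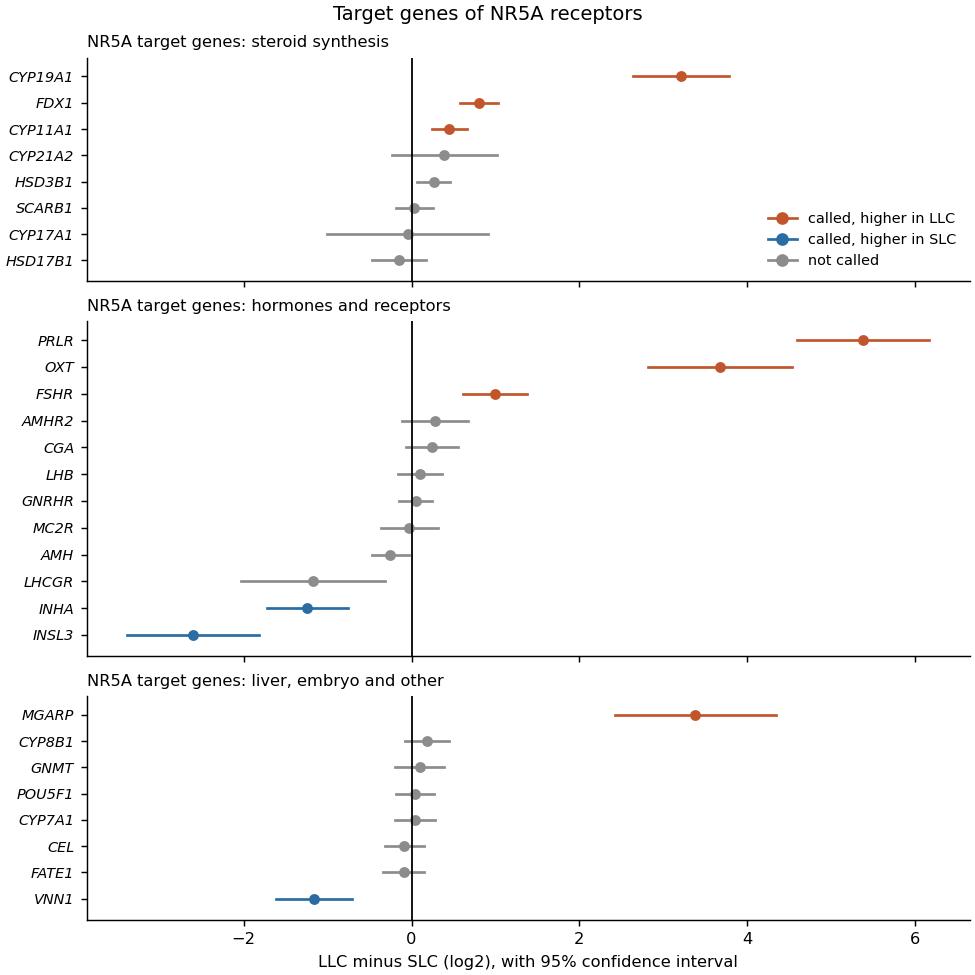
Difference LLC minus SLC (log2) of the 28 measured target genes of NR5A receptors, with the 95% confidence interval of limma on 4 and 4 arrays. Orange marks genes called higher in LLC (7), blue genes called higher in SLC (3) and grey genes that were not called (18). PRLR, OXT, MGARP and CYP19A1 lie farthest to the right and INSL3 farthest to the left.

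Genes of proteins that act with NR5A receptors were also read. Of 33 cofactor and partner genes, 27 were measured, and 3 were called higher in LLC and 5 higher in SLC, which is 29.6% beside 19.8% of all clusters. The median difference was -0.32. The count depended on single arrays and ran from 3 without SLC replicate 2 or SLC replicate 4 to 13 without LLC replicate 4, where 10 lay towards SLC and 3 towards LLC. At an unadjusted p under 0.05 there were 14 towards SLC and 4 towards LLC. Over all 24415 clusters, 7523 had an unadjusted p under 0.05 in either direction.

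Among 10 coactivator genes, PPARGC1B, of the PGC-1 family of coactivators of oxidative metabolism, stood out. Its signal was 3.95, 3.41, 3.62 and 3.53 in SLC replicates 1 to 4 and 5.53, 5.18, 5.26 and 4.58 in LLC replicates 1 to 4. The groups did not overlap, and the difference was 1.51 (SE 0.20, limma adjusted p = 0.000907). Its relative PPARGC1A was below the background limit on all 8 arrays. NCOA1, a steroid receptor coactivator gene, differed by -0.42 (SE 0.12) and CREBBP, a histone acetyltransferase gene, by -0.51 (SE 0.14). Both lost the call in 9 of 17 alternative settings, among them each one that left out 1 array other than LLC replicate 4. CTNNB1, the beta-catenin gene, was at 8.20 to 8.32 in SLC and 7.99 to 8.07 in LLC, a difference of -0.23 that was not called (limma adjusted p = 0.0926), though it was in 2 of 17 alternative settings.

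Of 8 measured corepressor and modifier genes, 25% were called, beside 19.8% of all clusters. NCOR1 was called higher in LLC by 0.39 (SE 0.10) and SIN3A higher in SLC by 0.57 (difference -0.57, SE 0.18). Both belong to complexes that recruit histone deacetylases. The call of SIN3A was lost in 11 of 17 alternative settings, among them each one that left out 1 array other than LLC replicate 4. That of NCOR1 was lost in 3, at an adjusted p of 0.0511 without SLC replicate 2 and 0.0509 without SLC replicate 4.

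Of 9 measured partner transcription factors, 1 was called higher in LLC and 2 higher in SLC, which is 33.3% beside 19.8% of all clusters. FOXL2, a forkhead factor of granulosa cells, was at 4.19, 3.97, 4.07 and 4.34 in SLC replicates 1 to 4 and 6.27, 6.07, 5.92 and 5.11 in LLC replicates 1 to 4. Every LLC array was above every SLC array, with LLC replicate 4 the lowest of its group, and the difference was 1.70 (SE 0.22, limma adjusted p = 0.000912). SP1, a factor of many promoters, was called at -0.62 (SE 0.11) and WT1, a zinc finger factor of the early gonad, at -0.42 (SE 0.13, call lost in 10 of 17 alternative settings, and kept with 1 array left out only for SLC replicate 3 or LLC replicate 1). GATA4 and GATA6, zinc finger factors that act with NR5A1 on steroidogenic promoters, differed by -0.36 (limma adjusted p = 0.105) and -0.41 (limma adjusted p = 0.0507) and were not called. GATA6 passed the threshold in 6 of 17 alternative settings, among them those without LLC replicate 3 (-0.47) and without LLC replicate 4 (-0.44).

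Of 7 measured genes known to regulate NR5A1 transcription, 1 was called, which is 14.3% beside 19.8% of all clusters. CITED2, which encodes a transcriptional coregulator, was at 7.74, 7.85, 8.07 and 7.84 in SLC replicates 1 to 4 and 7.64, 7.00, 6.91 and 6.96 in LLC replicates 1 to 4. All SLC arrays were above all LLC arrays, though LLC replicate 1 stood close to SLC. The difference was -0.75 (SE 0.17, limma adjusted p = 0.0111). Without moderation of the spread it was no longer called (adjusted p = 0.0509).

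Other nuclear receptors that bind the same kind of half-site, or compete for it, were also read. Of 11 measured, 2 were called higher in LLC and 5 higher in SLC, which is 63.6% beside 19.8% of all clusters. RORA, an orphan receptor gene, was at 4.85 to 5.10 in SLC and 5.55 to 5.98 in LLC, a difference of 0.86 (SE 0.12). ESRRG, an estrogen-related receptor gene, differed by 0.69 (SE 0.18) but was below the background limit on all 8 arrays, and its call was lost without SLC replicate 1, 2 or 3. The 3 members of the NR4A family, which are induced early by cell signals, were all called higher in SLC. NR4A2 differed by -1.23 (SE 0.19), NR4A3 by -0.96 (SE 0.14) and NR4A1 by -0.59 (SE 0.14). The COUP-TF genes, whose products compete with NR5A1 at some promoters, were higher in SLC as well. NR2F1 was at 6.54, 6.54, 6.80 and 6.27 in SLC replicates 1 to 4 and 5.05, 4.49, 5.35 and 6.02 in LLC replicates 1 to 4, a difference of -1.31 (SE 0.27). NR2F2 differed by -1.02 (SE 0.21). NR4A1 and NR2F1 lost the call without moderation of the spread (adjusted p = 0.0508 and 0.0562). NR2F1 and NR2F2 are also expressed in stromal and endothelial cells, whose markers were higher in SLC as given above. The part of these cells in the NR2F1 and NR2F2 values was not tested.

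**Figure D3:**
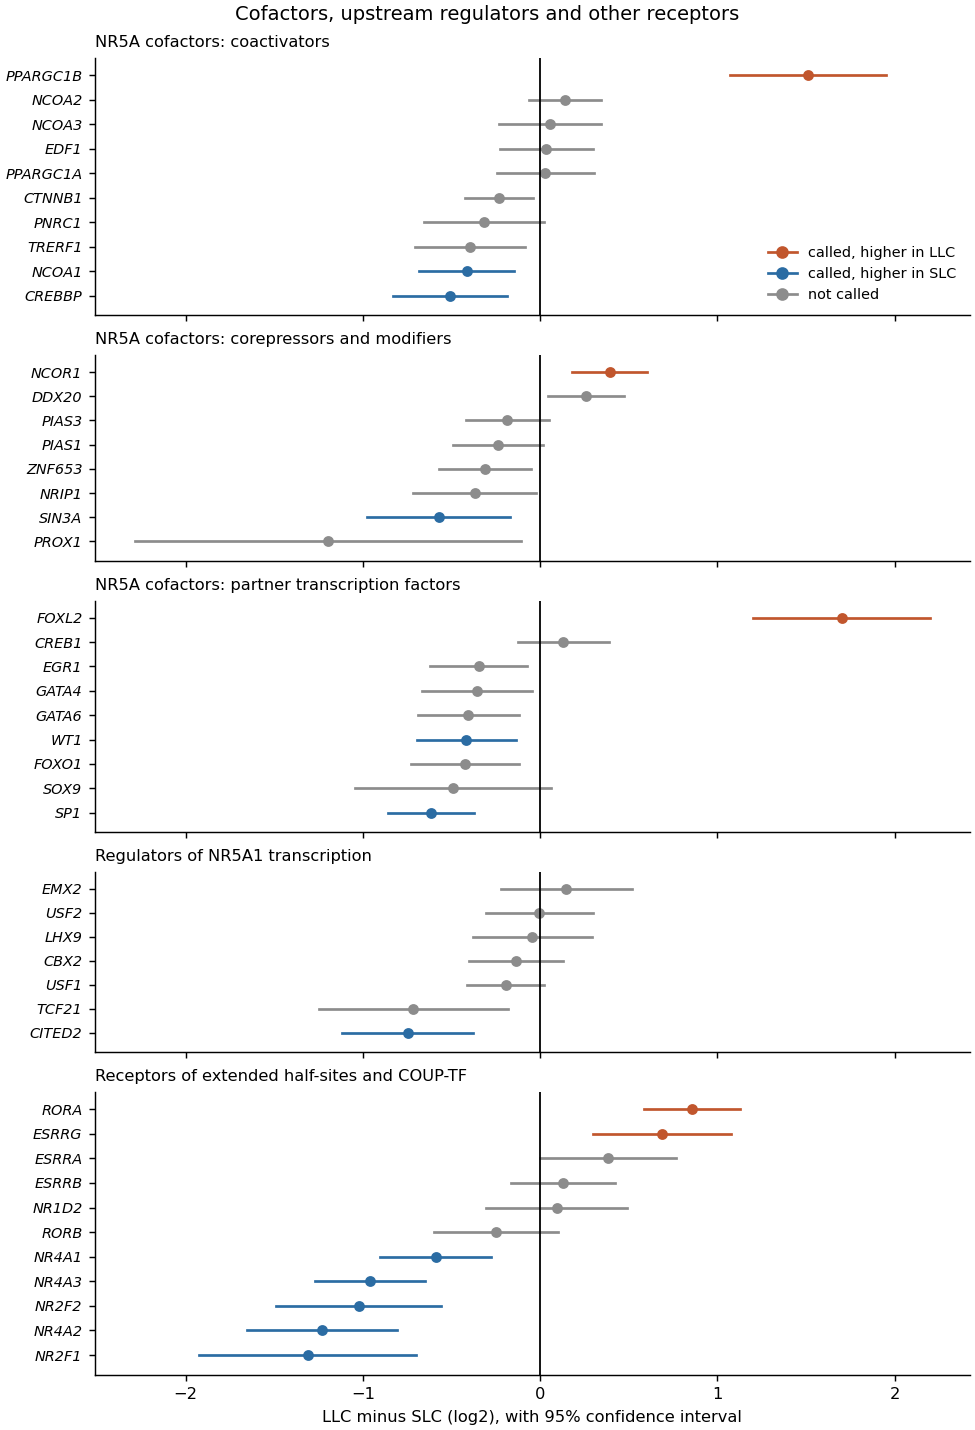
Difference LLC minus SLC (log2) of 27 cofactor and partner genes, 7 regulators of NR5A1 transcription and 11 receptors of extended half-sites, with the 95% confidence interval of limma on 4 and 4 arrays and the colours of the plot of target genes. FOXL2, PPARGC1B, RORA and ESRRG reach farthest towards LLC, and NR2F1, NR4A2 and PROX1, the last called only without LLC replicate 4 (-1.69), farthest towards SLC.

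Genes of the granulosa and theca lineages were read as well, and several of them are also among the genes above. Of 10 granulosa genes, 5 were called higher in LLC (OXT, CYP19A1, FST, FOXL2 and FSHR) and 2 higher in SLC (INHA and GATM), which is 70.0% in all beside 19.8% of all clusters. FST, the follistatin gene, was at 4.30 to 4.72 in SLC and 6.97 to 8.31 in LLC, a difference of 2.92 (SE 0.25). GATM, an enzyme gene of creatine synthesis, differed by -0.85 (SE 0.15). Of 7 measured genes of the theca lineage, 0 were called higher in LLC by limma, with 1 at an unadjusted p under 0.05, and 3 were called higher in SLC (INSL3, PDGFRA and NR2F2), which is 42.9% in all. PDGFRA, a growth factor receptor gene that also marks fibroblasts, differed by -2.36 (SE 0.32).

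The genes whose pattern over the 8 arrays was most like that of NR5A2 were RTKN2, PTGFR, FSTL4, EREG and FREM1. Likeness was the root mean square difference over the 8 arrays after each gene was centred on its own mean, and it was 0.45 for RTKN2, 0.48 for PTGFR, 0.50 for FSTL4 and EREG, and 0.52 for FREM1. RTKN2 was at 3.21, 3.59, 3.28 and 3.38 in SLC replicates 1 to 4 and 8.02, 7.57, 7.59 and 6.56 in LLC replicates 1 to 4. PTGFR, the receptor gene for prostaglandin F2alpha, was at 7.69, 6.82, 7.75 and 6.96 in SLC replicates 1 to 4 and 11.37, 11.31, 11.32 and 10.89 in LLC replicates 1 to 4. EREG encodes a ligand of the EGF family and FREM1 a protein of the extracellular matrix. In SLC, FREM1 was below the background limit on every array (1.56 to 1.80), so the size of its difference rests on such values. The differences of these 5 genes were 3.89 to 4.18, which the measure of likeness favours. LLC replicate 4 was the lowest LLC array in all 5, as for NR5A2, which the measure favours too. Over all clusters called higher in LLC, LLC replicate 4 was the LLC array nearest to SLC in 63.7%, and among the 7 target genes called higher in LLC in 5.

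**Figure D4:**
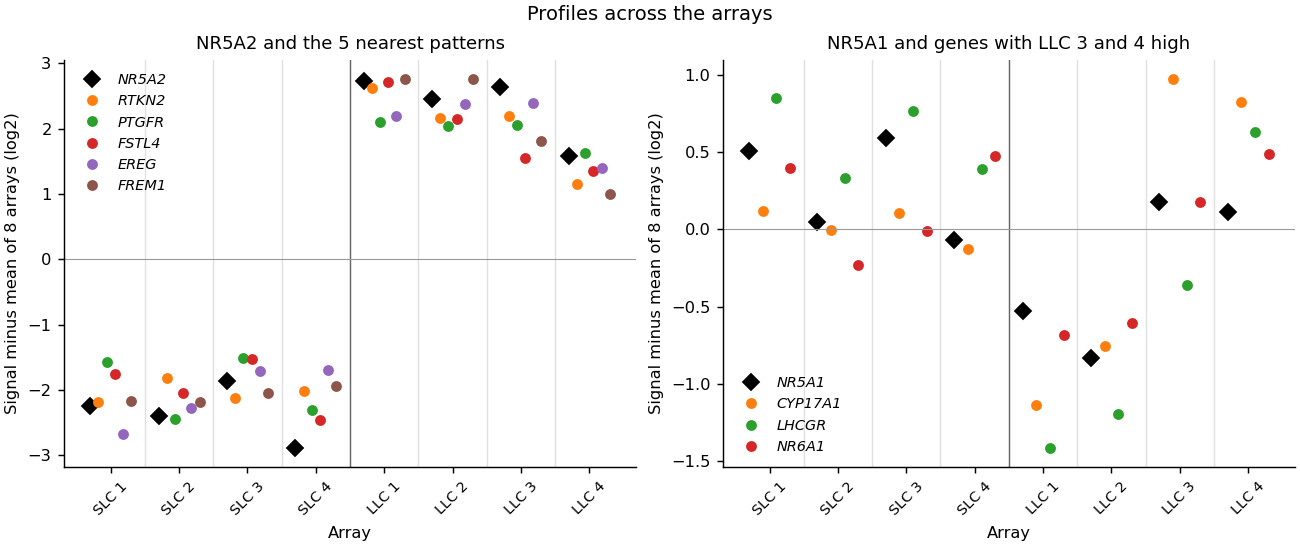
Signal minus the mean of the 8 arrays (log2) for each array, with a colour for each gene and NR5A2 or NR5A1 as black diamonds. The left panel shows NR5A2 with RTKN2, PTGFR, FSTL4, EREG and FREM1, all lowest among LLC arrays in LLC replicate 4. The right panel shows NR5A1 with CYP17A1, LHCGR and NR6A1, picked after the values were seen, where LLC replicates 3 and 4 lie above LLC replicates 1 and 2.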

How the data were processed

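RNA of 4 SLC and 4 LLC samples was measured on Affymetrix Bovine Gene 1.0 ST arrays. The authors deposited log2 signals made with RMA (background correction, normalization across arrays, summary of probes) in Transcriptome Analysis Console 4.0. The RMA version and genome build are not given in the sources used here. RMA brings the arrays to like distributions, so a shift shared by most genes would not be seen, and the number of arrays limits the precision.

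Values were used as deposited. Exactly 1 gene symbol was attached to 18550 of 24415 clusters, and only these were used for gene names. RefSeq (ARS-UCD2.0) held 17996 of them by gene number, and 0 symbols changed. For symbols with more than 1 cluster, the cluster with the highest mean represented the gene. LLC and SLC were compared in limma 3.58.1 (R 4.3.3) with lmFit and eBayes, and p-values were adjusted by Benjamini-Hochberg over all clusters. The fit was tested on simulated data.

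The 4 genes, the lists and the tests were chosen with earlier results of these data known. Named genes were the 4 members, up to 4 called genes of each list and direction by moderated t, and the 5 genes nearest to NR5A2. CYP17A1, LHCGR, HSD3B1, SCARB1, CYP7A1, CYP8B1, PPARGC1A, NR6A1, ZNF281, GATA4, GATA6, CTNNB1, NR4A1, MAGEB1, PTPRC and PROX1 were added after their values had been seen.

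Whether same-numbered arrays share a cow is unknown, so the replicate numbers were not used as pairs. Over all clusters such arrays did not deviate together, which does not settle the question. Alternatives were 2 normalizations, removal of clusters below percentile 40, a background floor, other moderation of the spread, the replicate number as a block, each array left out in turn, and averaging the clusters of a gene. Scaling to luteal steroidogenic markers was chosen after seeing the data.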

Additional observations from a re-analysis of the deposited data

Results flagged for a closer look

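Among 106 groups of 4 arrays, 2 for each gene tested here by name, 13 held an array far outside the others. By chance this happens in about 1 in 20 groups. Among the 4 genes themselves this was NR0B1 in SLC replicate 1, at 3.01 against 2.68 or less in the other SLC arrays.
LLC replicate 4 was the array that stood apart for CYP19A1 (4.91), SP1 (5.89), RORA (5.55), PTGFR (10.89) and PROX1 (4.44), each time towards SLC.
LLC replicate 1 stood apart for CITED2 (7.64), GATM (3.26), NR4A1 (8.27) and CYP7A1 (1.57, within background), and LLC replicate 3 for NR4A2 (4.14).
In SLC, replicate 3 stood apart for MGARP (4.30) and replicate 4 for ESRRG (1.12), the latter within background.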

How the results depend on the processing

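NR5A2 was called higher in LLC in all 18 alternative settings, with differences of 4.52 to 4.96. NR5A1 was not called in 17 of 18 settings. The exception was scaling to luteal steroidogenic markers, which gave -0.61 (limma adjusted p = 0.0482), with an SE of 0.19 in place of 0.24. All 5 scaling genes are in the list of NR5A targets, so this setting is not independent of the receptors. Their mean signal was 10.50, 10.53, 10.73 and 10.94 in LLC replicates 1 to 4, with replicates 3 and 4 above replicates 1 and 2, as for NR5A1. The cause of this call was not tested. NR0B1 was not called in any of 18 settings (-0.37 to -0.20). NR0B2 was not called in any of 17 and changed sign with values raised to the background limit, at 0.056; it fell below the filter on dim clusters, so that setting gave no value.
Over all clusters, same-numbered arrays did not deviate together (r of -0.13, -0.07, 0.17 and 0.01), which does not settle whether they share a cow. With the replicate block the SE was 0.13 for NR5A2 and 0.20 for NR5A1, in place of 0.28 and 0.24. It was 0.14 for NR0B1 and 0.12 for NR0B2, in place of 0.12 and 0.11. With the replicate block the change of NR5A2 minus NR5A1 stayed at 5.24, and its exact sign-flip p of 0.125 is the smallest that 4 pairs allow. The cofactor genes called numbered 4 with the replicate block and 3 to 13 with 1 array left out.
CYP17A1 ranged from -0.38 to 0.33 and SCARB1 from -0.018 to 0.064 with 1 array left out, and SCARB1 was at -0.027 with quantile normalization. ZNF281 ranged from -0.092 to 0.0083, CYP7A1 from -0.013 to 0.088 and PPARGC1A from -0.041 to 0.098 with 1 array left out. PPARGC1A was at -0.017 with quantile normalization, and MAGEB1 at 0.080 with values raised to the background limit. Of 49 genes tested by name beside the 4 receptors and corepressors, 27 kept direction and side of the threshold throughout. FSHR and ESRRG lost the call with values raised to the background limit.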
